A study of Mus musculus with 24 samples.

Results

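Rpph1, Rmrp and Terc encode the RNA subunits of RNase P, RNase MRP and telomerase, and they were selected by gene symbol. They were 3 of the 35001 gene names listed in the surface RNA tables and 3 of the 55335 genes in the blood cell tables. All 3 passed the filters on low values of the main tests. Deposited Terc stayed below the 50 TPM used in an alternative filter. Surface RNA was measured in 15 libraries from C57BL/6 mice of genotype labelled WT, 3 for each of 5 cell types. B cells, CD8 T cells (called T cells here) and NK cells were isolated from spleen with selection kits, and hematopoietic stem and progenitor cells (HSPCs, taken by lineage depletion) and monocytes (isolation kit) from bone marrow. In the surface assay, fixed intact cells were held on Concanavalin A beads, oligonucleotides with a T7 promoter and a random end were annealed to RNA exposed on the cell surface, and T7 RNA polymerase made copies from that RNA in place, which were then turned into sequencing libraries. Total RNA was sequenced from 9 libraries of peripheral blood mononuclear cells (PBMCs) from C57BL/6 mice of wild type genotype, 3 for each treatment labelled ct, WT or Y. The labels do not say what these treatments are, and they give no age for any animal. The study concedes that no available method, this assay included, wholly excludes carry-over of RNA from inside the cells. In a human cell line it reported lower TPM of ribozyme RNAs by this assay than in cell lysate. No library of intracellular RNA from the 5 sorted cell types was analysed here, so the part of such carry-over in the surface values was not tested.

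RNase P removes the 5′ leader of precursor tRNAs, and its RNA subunit Rpph1 carries out the catalysis. RNase MRP shares most protein subunits with RNase P, but holds the related RNA Rmrp and acts on precursor ribosomal RNA in the nucleolus. Terc is the RNA that telomerase copies into telomere repeats, and its 3′ part is an H/ACA domain bound by dyskerin. These RNAs are short, structured and best known inside the nucleus.

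The 3 RNAs are shown here because the overlap of their bases with other transcripts bears on the values that follow. Sequences and positions are of the GRCm38 mouse genome with the GENCODE M21 gene models, and all 3 genes lie on the minus strand. Rpph1 is a single-exon ribozyme gene of 319 bases at chr14:50807449-50807767, overlapping the 5′ end of Ccnb1ip1 on the same strand and separated by 73 bases from Parp2 on the other strand. Its bases 1 to 300 follow, with capitals for the run of 37 bases shared with the RNase P RNA-like gene Rprl3.
Rpph1: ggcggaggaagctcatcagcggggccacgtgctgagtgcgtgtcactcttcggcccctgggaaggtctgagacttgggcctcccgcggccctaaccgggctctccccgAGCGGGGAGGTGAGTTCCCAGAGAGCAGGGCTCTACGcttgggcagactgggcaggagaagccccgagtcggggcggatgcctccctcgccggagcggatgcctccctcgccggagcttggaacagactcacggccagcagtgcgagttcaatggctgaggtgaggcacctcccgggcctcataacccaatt
Rmrp is a single-exon gene of 281 bases at chr4:43492783-43493063, annotated as a lincRNA (model Rmrp-202), and a ribozyme model of 271 bases (Rmrp-201) lies within it at chr4:43492788-43493058. Capitals mark the 124 bases that lie opposite Ccdc107-206, a transcript of the plus strand.
Rmrp: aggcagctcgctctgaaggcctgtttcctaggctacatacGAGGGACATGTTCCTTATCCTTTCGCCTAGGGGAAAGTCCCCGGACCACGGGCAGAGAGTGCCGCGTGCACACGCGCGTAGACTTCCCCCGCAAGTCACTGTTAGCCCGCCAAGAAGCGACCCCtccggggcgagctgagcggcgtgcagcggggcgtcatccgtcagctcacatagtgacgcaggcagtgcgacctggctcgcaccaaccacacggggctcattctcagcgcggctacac
Terc is a single-exon gene of 423 bases at chr3:96414437-96414859 in M21, whose single model has another identifier than both Terc models of the surface tables, so the sequence shown cannot be assigned to either. Bases 1 to 240 hold the longest match to repeats of CCCTAA, in capitals, which is the stretch complementary to telomere repeats.
Terc, bases 1 to 240: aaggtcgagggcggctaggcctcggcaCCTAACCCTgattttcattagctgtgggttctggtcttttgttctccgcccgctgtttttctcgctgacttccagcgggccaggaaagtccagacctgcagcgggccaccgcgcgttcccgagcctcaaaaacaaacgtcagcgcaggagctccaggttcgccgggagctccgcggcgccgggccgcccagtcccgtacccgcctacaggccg
Bases 324 to 423 hold the 3′ end, with the ACA that lies 3 bases before the end in capitals.
Terc, bases 324 to 423: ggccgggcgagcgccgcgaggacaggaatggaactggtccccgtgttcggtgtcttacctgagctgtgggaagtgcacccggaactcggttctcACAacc

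Rpph1 and Rmrp had no run of more than 9 bases in common, so no word of 31 bases was common to both. Of the 289 words of 31 bases in Rpph1, 203 (70.2%) also occurred in a transcript of Ccnb1ip1, whose surface level was at most 0.0424 TPM, and 13 (4.50%) occurred in Rprl3. The similar gene Rprl2 shared 4 words and held the most surface signal among the sharing transcripts that were listed, at most 4.08 TPM in B cells, 2.89 in monocytes and 0.393 in any other type. Rprl3 was listed for monocytes alone, at 0 TPM, so its level in the other types is not known. Of the 251 words of Rmrp, 94 (37.5%) occurred on the opposite strand of Ccdc107-206, which reached at most 0.748 TPM. No word of Terc occurred in a transcript of another M21 gene, and sharing between the Terc models of the surface tables was not tested. How the deposited counting divided reads among these transcripts was not tested.

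Both deposited and rescaled levels are used for the surface libraries, because a small set of RNAs took most of the signal. TPM (a level per transcript length, scaled to the same total in each library) was taken as deposited and was also rescaled after leaving out genes of type rRNA and the same-valued Gm55936, Gm55094 and Gm55118, all 3 annotated as microRNA genes. What was left was 9.00 to 13.1% of the deposited TPM in HSPCs, 25.2 to 27.3% in B cells, 32.6 to 34.5% in NK cells, 35.4 to 42.5% in T cells and 48.7 to 50.1% in monocytes. Rescaling multiplied levels 7.63 to 11.1 times in HSPCs and 2.00 to 2.06 times in monocytes, so an order between cell types could differ between the scales. TPM keeps no sequencing depth, and the depth of the surface libraries is unknown. Monocyte libraries came from a different sequencing platform than the rest, and their table lists more transcripts, so cell type and platform cannot be told apart for monocytes. Summed markers were highest in the labelled type for B cells (898 to 1283 TPM, at most 149 elsewhere), T cells (20.4 to 57.8, at most 5.96 elsewhere), NK cells (67.3 to 194, at most 30.2 elsewhere) and monocytes (2922 to 3583, at most 32.1 elsewhere). The HSPC markers Kit, Cd34, Flt3, Gata2 and Meis1 went against the label on deposited TPM, with 9.96 to 15.6 in HSPCs and 23.97 to 31.03 in monocytes, while the rescaled sums were 111 to 128 and 49.2 to 64.4. In bulk samples, fewer cells of a type and less RNA per cell cannot be told apart.

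Rpph1, the RNase P RNA, was highest on B cells on both scales. The deposited level was 471, 472 and 438 TPM in the 3 B cell libraries, against 315, 303 and 343 TPM in monocytes and 176, 325 and 285 TPM in T cells. NK cells had 168, 162 and 209 TPM, and HSPCs had 127, 151 and 144 TPM. Every B cell library lay above the other 12 libraries, every HSPC library lay below them, and T cells overlapped both monocytes and NK cells. In means this was 460 ± 19.2 TPM (SD, n = 3) for B cells, 321 ± 20.6 for monocytes, 262 ± 77.5 for T cells, 179 ± 26.0 for NK cells and 140 ± 12.4 for HSPCs, a 3.28-fold span. Among the genes above 0 in a library, Rpph1 ranked between 105 and 236.

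Rescaling kept B cells first and moved HSPCs from last place to the second. Rescaled Rpph1 was 1837, 1729 and 1741 TPM in B cells, 1407, 1149 and 1316 in HSPCs, and 424, 766 and 807 in T cells. The rescaled values of monocytes were 635, 629 and 705, and those of NK cells were 486, 495 and 634. B cells and HSPCs each stood clear of the other types, while the T cell, monocyte and NK cell values overlapped.

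Each cell type was compared with the mean of the other 4 by limma on log2(TPM + 1), with p-values adjusted by the Benjamini-Hochberg method over all genes tested, 13020 on deposited TPM and 16339 on rescaled TPM. Rpph1 was higher in B cells by 1.11 ± 0.20 (log2 difference ± SE, n = 3 against 12, adjusted p = 3.62e-04, a 2.16-fold difference) on deposited TPM and by 1.27 ± 0.19 (adjusted p = 1.34e-04) after rescaling. The same contrast called 62.5% and 47.1% of all genes on the 2 scales. NK cells were lower on both, at -0.59 ± 0.20 (adjusted p = 0.0292) and -0.89 ± 0.19 (adjusted p = 0.00409), where the contrast called 45.1% and 39.9% of genes. For HSPCs the direction depended on the scale, with -1.03 ± 0.20 (adjusted p = 4.31e-04) on deposited and 0.70 ± 0.19 (adjusted p = 0.0101) on rescaled TPM, beside 82.8% and 43.7% of genes called. For monocytes it also turned, from 0.46 ± 0.20 (adjusted p = 0.0410) to -0.52 ± 0.19 (adjusted p = 0.0209), beside 93.6% and 86.9% of genes called. T cells gave 0.04 ± 0.20 (adjusted p = 0.846) on deposited and -0.56 ± 0.19 (adjusted p = 0.0144) on rescaled TPM, where 88.4% and 84.1% of genes were called. The rescaled T cell call was lost without T cell replicate 1 (-0.27, adjusted p = 0.140), and the rescaled HSPC call without HSPC replicate 1 (0.63, adjusted p = 0.0585). The deposited monocyte call was lost in 8 of 15 fits that left out 1 library, with adjusted p up to 0.187, the rescaled one without monocyte replicate 1 (adjusted p = 0.0764) or replicate 2 (0.0801), and the deposited NK call in 5 of 15, while without all monocyte libraries NK cells gave -0.51 (adjusted p = 0.185). Since these backgrounds are large, a call alone does not set Rpph1 apart from other genes.

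**Figure D1:**
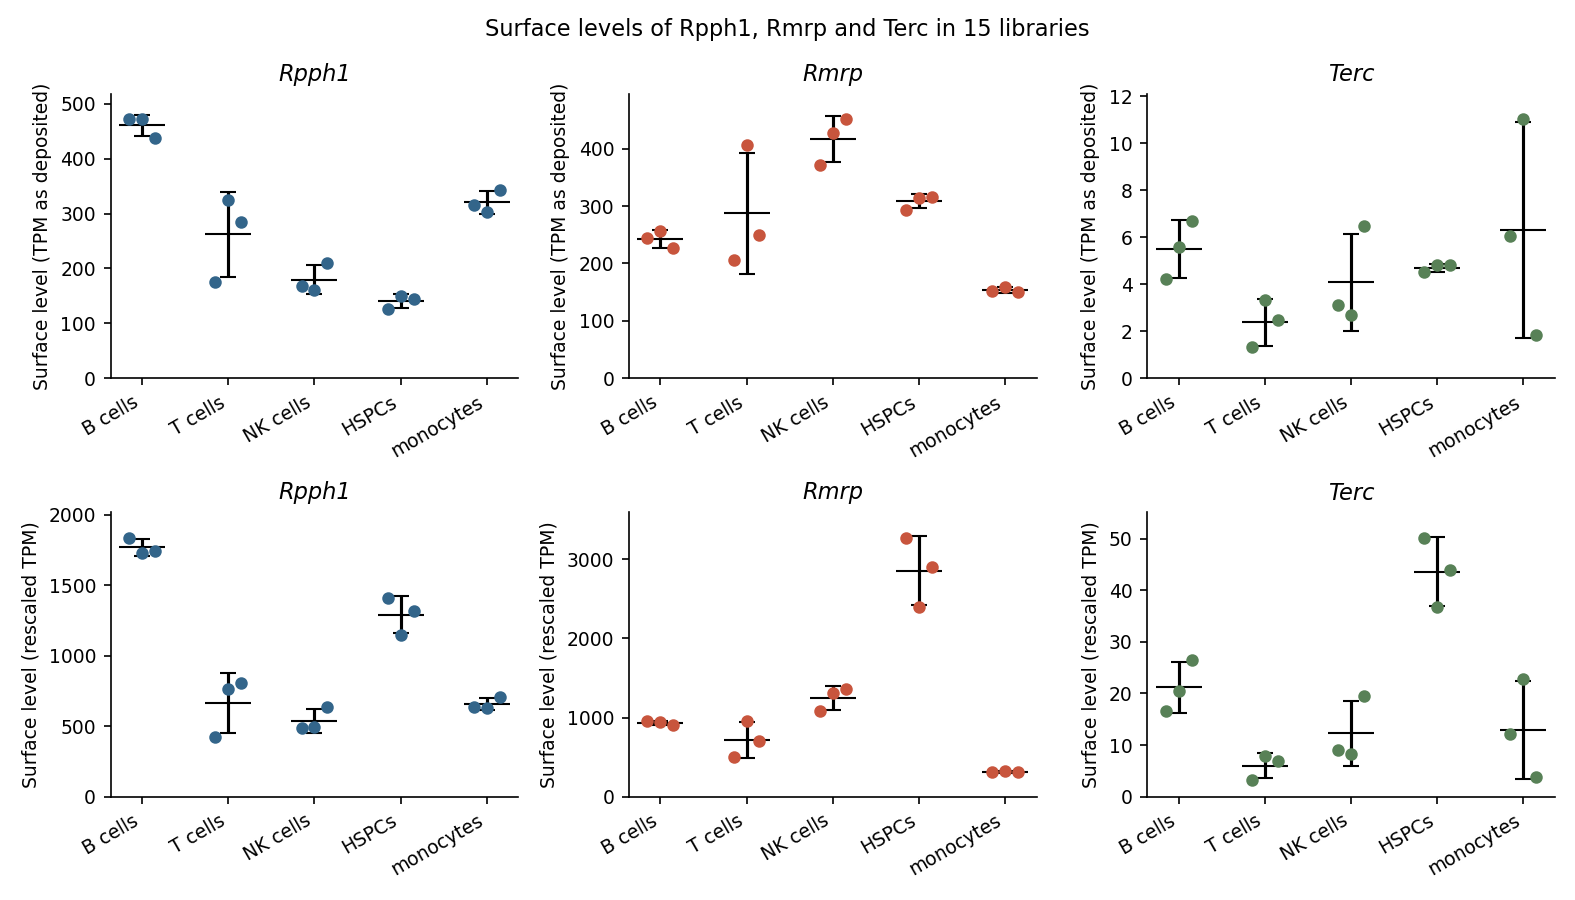
Surface level in TPM of Rpph1, Rmrp and Terc in each of the 15 libraries by cell type, as deposited (top) and rescaled (bottom), with the mean and SD as horizontal and vertical lines. B cells hold the highest Rpph1 values on both scales (438 to 472 TPM as deposited), while HSPCs move from the lowest Rpph1 values to the second highest after rescaling.

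Rmrp, the RNase MRP RNA, was lowest on monocytes on both scales. Its deposited level was 152, 159 and 150 TPM in monocytes, 244, 257 and 227 TPM in B cells and 207, 407 and 249 TPM in T cells. HSPCs had 294, 315 and 316 TPM, and NK cells had 372, 427 and 451 TPM. Every monocyte library lay below the other 12 libraries, and the T cell libraries overlapped the B cells, HSPCs and NK cells. The highest monocyte value was 159 TPM and the lowest value elsewhere was 207 TPM. The means were 417 ± 40.6 TPM (SD, n = 3) in NK cells, 308 ± 12.4 in HSPCs, 287 ± 105 in T cells, 243 ± 15.3 in B cells and 154 ± 4.82 in monocytes.

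On rescaled TPM the values were 3267, 2401 and 2896 in HSPCs, with 1077, 1310 and 1366 for NK cells and 952, 943 and 900 for B cells. T cells held 498, 957 and 703, and monocytes 307, 330 and 308. HSPCs stood above every other library, and monocytes again stood below every other library. The span between the highest and lowest mean was 2.71-fold on deposited TPM (NK cells over monocytes) and 9.06-fold on rescaled TPM (HSPCs over monocytes).

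Against the other 4 types, Rmrp in monocytes was lower by limma on both scales, at -0.98 ± 0.20 (adjusted p = 2.94e-04) on deposited and -1.96 ± 0.18 (adjusted p = 2.54e-07) on rescaled TPM. On deposited TPM that contrast called 11617 genes higher and 566 lower, with a median of 2.20 over all genes tested, opposite in direction to Rmrp. The filter needs more than 1 TPM in at least 3 libraries, which the monocyte libraries alone can give, so this shift is partly set by the filter. It is not read as support for the Rmrp difference. NK cells were higher at 0.81 ± 0.20 (adjusted p = 0.00609) and 0.51 ± 0.18 (adjusted p = 0.0421), and without the monocyte libraries these became 0.60 (adjusted p = 0.120) and 0.02 (adjusted p = 0.977). The rescaled NK call was also lost with a replicate block (adjusted p = 0.0523) and in 11 of 15 fits without 1 library. HSPCs gave 0.27 ± 0.20 (adjusted p = 0.221) on deposited and 2.00 ± 0.18 (adjusted p = 4.33e-06) on rescaled TPM. T cells gave 0.07 ± 0.20 (adjusted p = 0.754) and -0.54 ± 0.18 (adjusted p = 0.0154), the latter lost without T cell replicate 1 (-0.30, adjusted p = 0.136), and B cells -0.16 ± 0.20 (adjusted p = 0.491) and -0.01 ± 0.18 (adjusted p = 0.972). On deposited and rescaled TPM these contrasts called 45.1% and 39.9% of all genes for NK cells, 82.8% and 43.7% for HSPCs, and 88.4% and 84.1% for T cells. For monocytes the shares were 93.6% and 86.9%, and for B cells 62.5% and 47.1%. On rescaled TPM the monocyte contrast called 13111 genes higher and 1080 lower, with a median of 1.76. Neutrophil markers summed to 1381 to 1490 TPM in the monocyte libraries and to at most 53.5 elsewhere, and platelet markers to 85.6 to 122 TPM and at most 34.4 elsewhere. On rescaled TPM the platelet sums were 178 to 245 in monocytes and 206 to 274 in HSPCs, and the erythroid sums 415 to 601 in HSPCs and at most 306 in any other type. The part of these markers in the Rmrp levels was not tested. All Rmrp signal lay on the model Rmrp-202, and Rmrp-201 was listed in the monocyte table alone, at 0 TPM.

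Terc, the telomerase RNA, was far below Rpph1 and Rmrp in every library. On deposited TPM its SD was a larger share of its mean than theirs in every cell type except HSPCs. On rescaled TPM this share in HSPCs was 15.4% for Terc, beside 15.2% for Rmrp and 10.1% for Rpph1. The deposited level of Terc was 4.24, 5.58 and 6.67 TPM in B cells, 1.35, 3.34 and 2.47 TPM in T cells and 3.11, 2.69 and 6.46 TPM in NK cells. HSPCs held 4.51, 4.81 and 4.80 TPM, and monocytes 6.03, 11.0 and 1.85 TPM. T cells lay below B cells and HSPCs with no overlap, the other pairs of types overlapped, and the 3 monocyte libraries alone spanned most of the range. No library reached the 50 TPM that the study used to call a surface RNA, which Rpph1 and Rmrp passed in all 15 libraries, and rescaling brought 1 library of HSPCs above it. The means were 6.30 ± 4.59 TPM (SD, n = 3) in monocytes, 5.50 ± 1.22 for B cells, 4.71 ± 0.170 for HSPCs, 4.09 ± 2.07 for NK cells and 2.38 ± 0.998 for T cells, a 2.64-fold span.

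Rescaled Terc was 50.1, 36.7 and 44.0 TPM in HSPCs, with 16.5, 20.5 and 26.5 for B cells and 9.01, 8.25 and 19.6 for NK cells. Monocytes held 12.2, 22.9 and 3.80, and T cells 3.25, 7.85 and 6.98. HSPCs lay above every other library on this scale, and the means spanned 7.24-fold from HSPCs through B cells, monocytes and NK cells to T cells. limma gave HSPCs 0.19 ± 0.34 (adjusted p = 0.611) on deposited and 1.88 ± 0.40 (adjusted p = 0.00208) on rescaled TPM. T cells were lower at -0.81 ± 0.34 (adjusted p = 0.0349) and -1.52 ± 0.40 (adjusted p = 0.00286), and the deposited call was lost without T cell replicate 1 (-0.57, adjusted p = 0.190) and without T cell replicate 3 (-0.85, adjusted p = 0.0682). It was also lost with no filter (adjusted p = 0.100), and quantile normalization turned it to 0.18 (adjusted p = 0.524). The T cell contrast called 88.4% and 84.1% of all genes on the 2 scales, with medians of -0.83 and -1.24. Deposited Terc in T cells thus lay near the median of all genes, and the call does not set Terc apart. The HSPC contrast called 82.8% and 43.7% of genes, with medians of -0.66 and 0.19. B cells (0.40 and 0.61), NK cells (-0.11 and -0.41) and monocytes (0.34 and -0.55) passed the threshold on neither scale, although monocytes without replicate 3 reached 0.90 (adjusted p = 0.00903) on deposited TPM and without replicate 2 reached -1.08 (adjusted p = 0.0225) on rescaled TPM, and quantile normalization gave monocytes -1.90 (adjusted p = 1.06e-05).

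The gene model that held the Terc signal differed between the libraries. In monocytes all of it was on Terc-201, with 6.03, 11.0 and 1.85 TPM, and Terc-202 was at 0 in all 3. In every library of T cells, NK cells and HSPCs, and in B cell replicates 1 and 2, it was all on Terc-202, apart from 9.33e-10 TPM on Terc-201 in T cell replicate 1. B cell replicate 3 had 3.67 TPM on Terc-202 and 3.00 TPM on Terc-201. A fit on Terc-202 in place of the gene sum therefore holds 0 in every monocyte library, which enters each contrast of 1 type with the others, so no call is read from it. The T cell value in that fit was -0.094 (limma adjusted p = 0.686). It is not read as a loss of the call, since the 0 of monocytes enters it too. Model, platform and cell type cannot be told apart for the monocyte values.

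**Figure D2:**
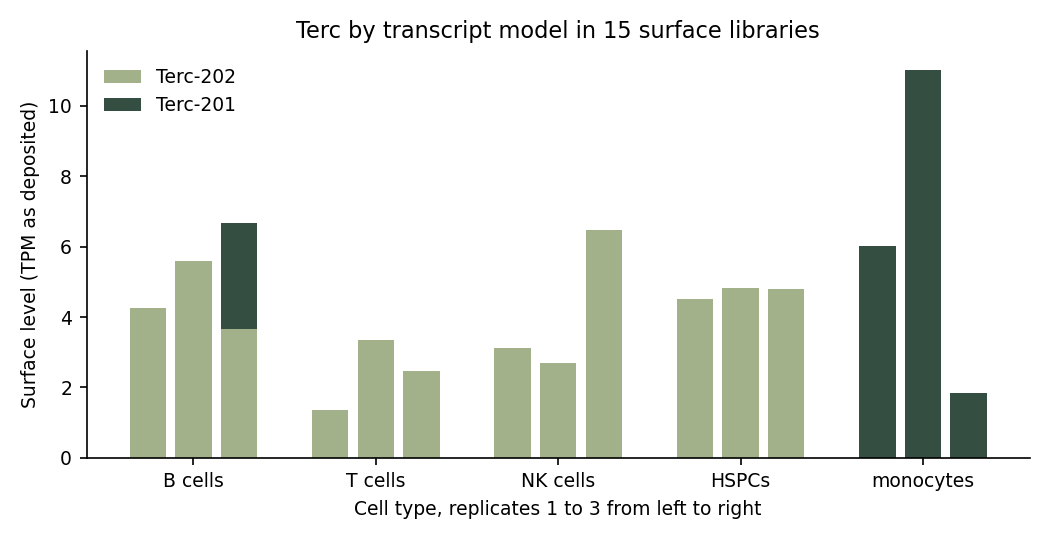
Terc TPM in each surface library split by gene model (Terc-201 and Terc-202). Monocyte libraries are on Terc-201 only, 11 of the other 12 are on Terc-202 only (apart from 9.33e-10 TPM on Terc-201 in T cell replicate 1), and B cell replicate 3 holds both.

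**Figure D3:**
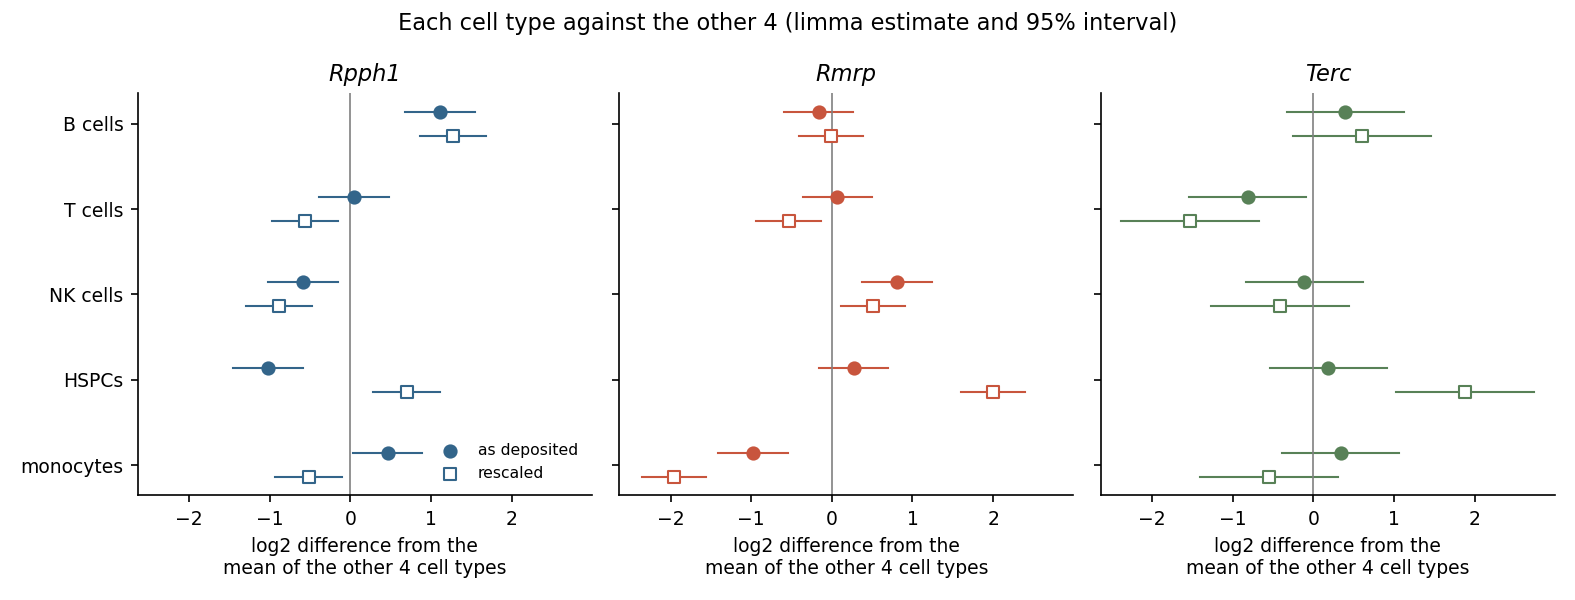
limma log2 difference of each cell type from the mean of the other 4 (points) with 95% intervals (lines), for deposited TPM (filled circles) and rescaled TPM (open squares). Rpph1 in B cells and Rmrp in monocytes keep their sides on both scales, and Rpph1 in HSPCs and monocytes changes sign.

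To see which neighbours in each order differ, the 10 pairs of cell types were tested in the same limma fit, and log2 differences are followed by the adjusted p in parentheses. For Rpph1, 6 of 10 pairs were called on each scale. On deposited TPM no neighbouring pair of the order B cells, monocytes, T cells, NK cells, HSPCs passed the threshold: B cells minus monocytes was 0.52 (adjusted p = 0.0643), T cells minus monocytes -0.33 (0.220), T cells minus NK cells 0.51 (0.123) and NK cells minus HSPCs 0.35 (0.373). B cells were above T cells by 0.86 (adjusted p = 0.0193), above NK cells by 1.36 (0.00170) and above HSPCs by 1.71 (1.63e-04), and T cells were above HSPCs by 0.85 (0.0250). Quantile normalization turned B cells minus HSPCs to -0.15 (adjusted p = 0.617) and T cells minus HSPCs to -1.51 (7.94e-05). NK cells and HSPCs were below monocytes, at -0.84 (0.00602) and -1.19 (4.36e-04). The T cell to HSPC call was lost in 6 of 15 fits that left out 1 library (adjusted p up to 0.0980), and the B to T cell call in 2 of 15 (up to 0.0768). On rescaled TPM the order was B cells, HSPCs, T cells, monocytes, NK cells, in which T cells minus HSPCs was -1.01 (adjusted p = 0.00214), and B cells minus HSPCs at 0.46 (0.147), T cells minus monocytes at -0.04 (0.899) and NK cells minus monocytes at -0.29 (0.269) did not pass.

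For Rmrp, 5 of 10 pairs were called on deposited and 8 of 10 on rescaled TPM. Deposited Rmrp in monocytes was below B cells by a difference of 0.65 (adjusted p = 0.0244), T cells 0.84 (0.00595), NK cells 1.43 (8.39e-05) and HSPCs 1.00 (0.00174), and B cells minus NK cells was -0.77 (0.0489). With 1 library left out, the B to NK cell call was lost in 12 of 15 fits (adjusted p up to 0.136) and the B cell to monocyte call in 4 of 15 (up to 0.0924). The neighbours NK cells minus HSPCs (0.43, adjusted p = 0.263), T cells minus HSPCs (-0.16, 0.750) and B cells minus T cells (-0.18, 0.657) did not pass. On rescaled TPM NK cells minus HSPCs was -1.19 (adjusted p = 0.00190) and T cells minus monocytes was 1.14 (3.84e-04), while B cells minus NK cells (-0.42, 0.249) and B cells minus T cells (0.42, 0.159) did not pass. For Terc no pair was called on deposited TPM, where 2 of 10 had an unadjusted p under 0.05. In the 15 fits without 1 library, T cells minus monocytes passed in 3, B cells minus T cells in 2 and NK cells minus monocytes in 1. On rescaled TPM 4 of 10 Terc pairs were called, with B cells minus HSPCs, the first neighbours, at -1.02 (adjusted p = 0.121).

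These counts stand beside large backgrounds. On deposited TPM the pairs called 33.6% of genes for B against T cells, 17.9% for B against NK cells, 30.8% for B cells against HSPCs, 38% for T against NK cells, 23.6% for T cells against HSPCs and 17.9% for NK cells against HSPCs. The pairs with monocytes called 92.1% with B cells, 92.6% with T cells, 91.6% with NK cells and 92.2% with HSPCs. After rescaling the shares were 49% (B and T cells), 19.9% (B and NK cells), 41.7% (B cells and HSPCs), 46.2% (T and NK cells), 67.5% (T cells and HSPCs) and 42.3% (NK cells and HSPCs), and with monocytes 81.7% (B cells), 86.8% (T cells), 83.4% (NK cells) and 71.8% (HSPCs).

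The ratio of Rmrp to Rpph1 within a library does not depend on the scale. It was 0.518, 0.545 and 0.517 in B cells and 0.484, 0.525 and 0.436 in monocytes. T cells held 1.18, 1.25 and 0.871, NK cells 2.22, 2.64 and 2.16, while the ratios of HSPCs were 2.32, 2.09 and 2.20. The libraries fell into 3 ranges that did not overlap, with B cells and monocytes low, T cells between, and NK cells and HSPCs high. Erythroid markers summed to 58.9 to 102 TPM in NK cells and 37.3 to 69.1 in HSPCs, against at most 44.1 for monocytes, 15.6 for B cells and 9.45 for T cells. In NK cells the HSPC markers summed to 7.21 to 14.01 TPM, and the B cell markers to 127 to 149 TPM. The part of these markers in the ratio was not tested. Over all choices of 3 of the 15 libraries, an exact permutation test (two-sided, mean log2 ratio) found that monocytes differed from the rest by -1.45 (p = 0.00879, adjusted over 5 tests p = 0.0440), and this call was lost in 11 of 15 tests that left out 1 library. B cells (-1.28, exact p = 0.0769), NK cells (1.40, exact p = 0.0286, adjusted p = 0.0714), HSPCs (1.30, exact p = 0.0703) and T cells (0.03, exact p = 0.967) did not pass, although NK cells passed without HSPC replicate 1 (1.53, adjusted p = 0.0275). Without the monocyte libraries, B cells differed by -1.75 (exact permutation, adjusted p = 0.0182). With all 15 libraries the smallest p this test can give is 0.00220, and with fewer libraries the smallest is larger. The test shuffles the 15 libraries freely, although they are 3 replicates of each of 5 cell types. Its p therefore does not measure the spread between cell types. The ratios of B cells and monocytes overlapped, so the call does not set monocytes apart from B cells.

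**Figure D4:**
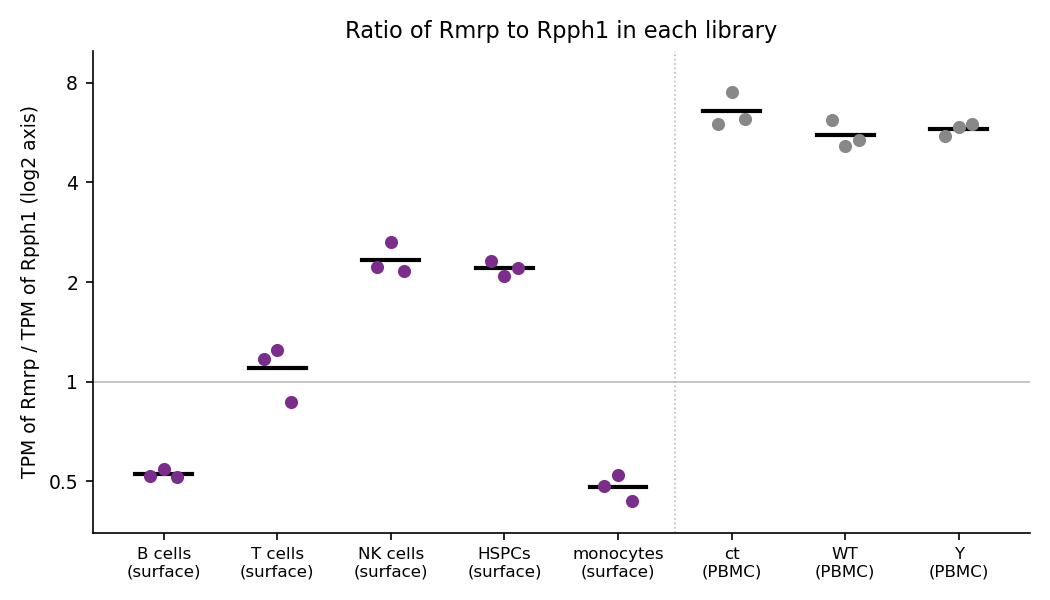
Ratio of Rmrp TPM to Rpph1 TPM in each library (points, log2 axis), with the mean of each group as a bar. The surface libraries fall in 3 separate ranges, and the PBMC libraries, from another assay and another quantification, lie between 5.14 and 7.52.

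Proteins of the same pathways and genes near the members were followed in lists of 35 genes in all, of which 29 passed the filter on deposited and 31 on rescaled TPM. A low gene can pass this filter only with the help of monocytes, so the counts describe those genes and not the whole lists. Of the 11 proteins of RNase P and RNase MRP, 8 were tested on deposited TPM and all 8 were higher in monocytes, with a median of 2.08 beside 2.20 over all genes, in a contrast that called 93.6% of all genes, 11617 of 13020 higher. Examples were Rpp30 (2.68), Pop4 (2.60) and Rpp21 (2.59), which encode protein subunits. Of the 8, 5 (Pop1, Pop4, Rpp14, Rpp25l and Rpp30) had fewer than 3 libraries above 1 TPM outside monocytes and so needed the monocyte libraries to pass. The summed level of the list was 55.1 to 72.2 TPM in monocytes and 2.50 to 10.3 TPM elsewhere. In the same contrast Rmrp was lower and Rpph1 higher (0.46, limma adjusted p = 0.0410), although Rpph1 was at -0.52 on rescaled TPM. The difference between the RNAs and the proteins was not tested.

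Of the 13 telomerase genes 12 were tested and all 12 were higher in monocytes on deposited TPM, beside 93.6% of all genes called, with a median of 2.18 beside 2.20 over all genes. Of the 12, 4 (Naf1, Shq1, Wrap53 and Tgs1) needed the monocyte libraries to pass the filter. Dkc1 (2.75), Nop10 (2.73) and Nhp2 (2.69), which encode proteins of the H/ACA particle, led the list. On rescaled TPM 9 of 12 were higher in HSPCs, with a median of 1.32 beside 0.19 over all genes and 43.7% of all genes called (4599 of 16339 higher), while on deposited TPM 4 of 12 were lower there, beside 82.8% of all genes called. Nhp2 (1.86), Ruvbl2 (1.75) and Gar1 (1.58) led on the rescaled scale. Tert, the reverse transcriptase, was at 0 TPM in all monocyte libraries and at most 0.265 TPM in any other library.

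Mitochondrial RNase P and the tRNA 3′ end enzymes form a list of 5 genes, all higher in monocytes on deposited TPM, beside 93.6% of all genes called, with a median of 1.70 beside 2.20 over all genes. Of the 5 tested, 4 (Prorp, Trmt10c, Hsd17b10 and Elac1) reached 3 libraries above 1 TPM only with monocytes. Hsd17b10 (3.10), Elac1 (1.72) and Elac2 (1.70) had the largest values. In T cells all 5 were lower, as were all 8 RNase P and MRP proteins and all 12 telomerase genes, beside a contrast that called 88.4% of all genes. The mean of the other types in that contrast holds the monocytes, which 4 of the 5, 5 of the 8 and 4 of the 12 needed to pass the filter. A lower value is therefore partly set by the filter, and no result about these genes is read from the counts. Of 6 genes listed as neighbours 4 were tested and all 4 were higher in monocytes, also beside 93.6% of all genes called. Parp2, next to Rpph1, was at 2.61, and Ccdc107, which overlaps Rmrp, and Arhgef39 beyond it were at 1.88 and 2.81, of which Parp2 and Arhgef39 passed the filter only with the monocyte libraries. Mynn, at 2.03, was listed for Terc with Actrt3 and Lrrc34, but in GRCm38 these lie at chr3:30597073-30647869 and do not neighbour Terc.

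The genes most like each member were sought by Pearson r of log2(rescaled TPM + 1) among 352 genes with a mean of at least 50 TPM, as a description over 15 libraries that share cell type, platform and composition. Rpph1 was most like Rps23 (r = 0.91), Gm10275 (0.89) and Rps13 (0.88), and on deposited TPM these were 0.93, 0.97 and 0.87. Rmrp was most like Mir6236 (0.90), Rn7sk (0.84) and Mir6240 (0.82), but on deposited TPM these were 0.64, 0.01 and 0.44. Terc was most like Rps12 (0.78), Rplp1 (0.77) and Rps21 (0.76), with deposited values of 0.52, 0.17 and 0.31. Among the members, Rpph1 and Rmrp had r of 0.44 on rescaled and -0.46 on deposited TPM, Rpph1 and Terc 0.67 and 0.23, and Rmrp and Terc 0.66 and -0.08.

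In PBMC total RNA, Rmrp was abundant, Rpph1 lower and Terc scarce. Total counts per library were 4686432 to 9055803, of which the ribosomal row CT010467.1 held 50.5 to 57.0%. Rmrp was counted 12785, 11780 and 15992 times in ct libraries, 17113, 12712 and 13983 times in those of WT and 7702, 14449 and 13467 times for Y. Rpph1 had 2596, 1951 and 3155 counts in ct, then 3417, 2999 and 3161 for WT and 1702, 3023 and 2745 for Y. Terc had 39, 43 and 38 counts in ct, against 61, 48 and 42 for WT and 18, 49 and 31 for Y. The library with the fewest counts of all 3 RNAs was Y replicate 1, and the groups overlapped in counts for each RNA.

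In CPM, counts scaled to the library total, Rpph1 was 299, 286 and 402 in ct, with 406, 384 and 349 for WT and 363, 404 and 390 for Y. Rmrp was 1473, 1726 and 2039 in ct, with 2034, 1630 and 1544 for WT and 1643, 1931 and 1913 for Y. Terc was 4.49, 6.30 and 4.85 in ct, with 7.25, 6.15 and 4.64 for WT and 3.84, 6.55 and 4.40 for Y. The groups overlapped in CPM for all 3 RNAs. In the deposited TPM of RSEM, Rpph1 was 454, 404 and 467 in ct and 484, 576 and 521 for WT, with 427, 479 and 434 for Y. On this scale WT did not overlap ct, as in 9.39% of the genes tested, and did not overlap Y, as in 16.7%. For Terc, the 18 counts of Y replicate 1 give an exact 95% interval of 2.28 to 6.07 CPM and the 61 counts of WT replicate 1 one of 5.54 to 9.31, which cover counting error only.

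No member was called between treatments by edgeR (quasi-likelihood test with Benjamini-Hochberg adjustment over 11635 genes) or by DESeq2, and 1 of the 9 tests had an unadjusted p under 0.05. The 3 comparisons called 2.36% (WT against ct), 0.696% (Y against ct) and 1.25% (Y against WT) of genes, and they share libraries. Rpph1 differed by 0.30 (log2, 95% interval 0.07 to 0.53) in WT minus ct, by 0.20 (-0.03 to 0.43) in Y minus ct and by -0.10 (-0.33 to 0.13) in Y minus WT. For WT minus ct the adjusted p of Rpph1 by edgeR was 0.254. Rmrp differed by 0.07 (-0.18 to 0.32), 0.03 (-0.22 to 0.28) and -0.04 (-0.29 to 0.21) in the same order. Terc differed by 0.28 (-0.14 to 0.71), -0.07 (-0.53 to 0.39) and -0.36 (-0.80 to 0.08). These differences are after TMM scaling, and 3 of them have the opposite sign to the CPM means by library total, each with an interval that includes 0: Rpph1 in Y minus WT (means of 386 and 379.9 CPM), Rmrp in WT minus ct (1736 and 1746 CPM) and Rmrp in Y minus WT (1829 and 1736 CPM). Of the 35 list genes 24 were tested, and none was called in any of the 72 tests by edgeR or DESeq2, with 1 unadjusted p under 0.05 and at most 169 counts of any of them in a library. Marker sums moved with the treatment labels: neutrophil markers were 65.3 to 85.7 CPM in ct, 50.4 to 64.6 in WT and 188 to 198 in Y, and erythroid markers 6535 to 7946, 3810 to 4942 and 4777 to 4813. NK cell markers were 30.1 to 33.4 CPM in ct, 34.2 to 48.1 in WT and 34.6 to 40.3 in Y. The part of these markers in the values of the members was not tested.

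**Figure D5:**
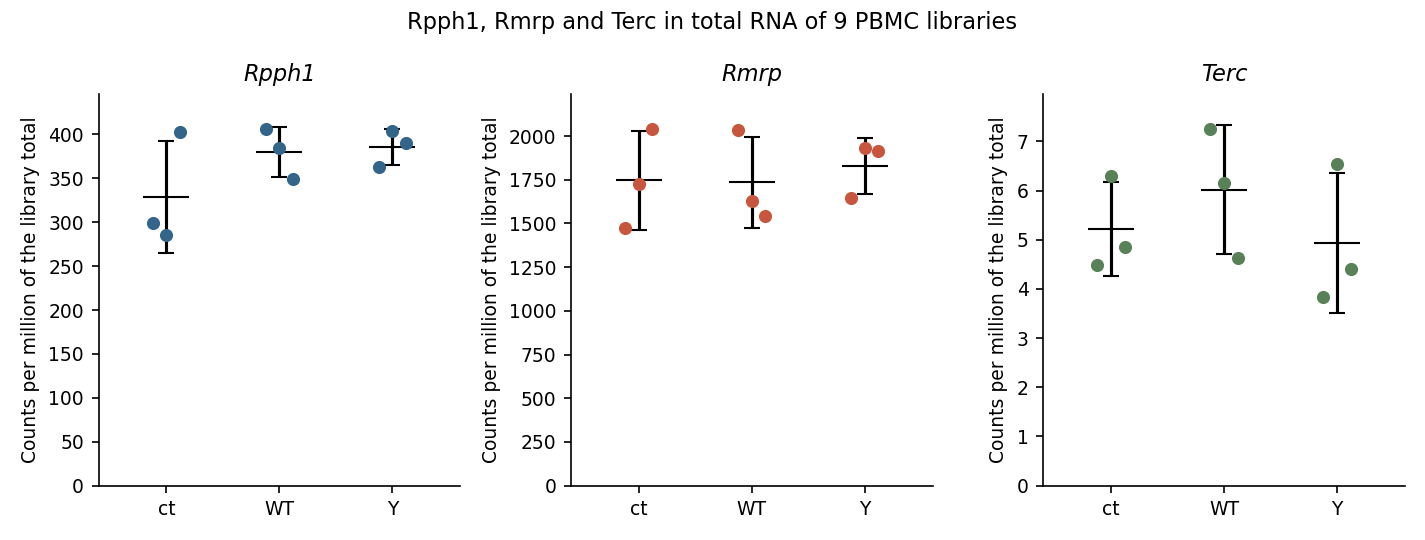
CPM of Rpph1, Rmrp and Terc in the 9 PBMC libraries by treatment label, with the mean and SD of each group (horizontal and vertical lines). The groups overlap for each RNA.

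In PBMCs Rprl3, which shares bases with Rpph1, had 243 to 606 counts, 12.7 to 19.2% of those of Rpph1, and was at 0 on the surface of monocytes, where alone it was listed. Adding the counts of Rprl1, Rprl2 and Rprl3 to Rpph1, a choice made after the data were seen, gave 0.33 for WT minus ct (edgeR adjusted p = 0.218). The ribozyme row of Rmrp had no counts in any PBMC library. The ratio of Rmrp to Rpph1 was 6.03, 7.52 and 6.21 in ct, with 6.18, 5.14 and 5.37 for WT and 5.53, 5.87 and 6.00 for Y, beside 0.436 to 2.64 at the surface of the sorted cells. The assays, cells, libraries and quantification differ, so no test of this difference was made.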

How the data were processed

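Surface RNA was profiled in 15 libraries and PBMC total RNA in 9. The authors deposited surface values as TPM per transcript, made with kallisto after trimming and removal of duplicates; the mouse transcript set is not given in the sources used here. For PBMCs the authors deposited RSEM expected counts and TPM, made with STAR against mm10. TPM was summed per gene name, and analysed as deposited and rescaled to 1000000 per library without rRNA genes and 3 same-valued microRNA genes. The monocyte table lists 149488 transcripts and the others 102168 each, of which 102001 are in all 5.

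Genes with more than 1 TPM in at least 3 libraries entered limma 3.58.1 (R 4.3.3) on log2(TPM + 1), with a mean-variance trend. Fold changes on this scale understate changes of low genes. The study itself compared cell types by a count model, which TPM does not allow. Expected counts were rounded and tested by edgeR 4.0.16 (quasi-likelihood, TMM, its default filter), with DESeq2 1.42.0 as an alternative. A call is a Benjamini-Hochberg adjusted p below 0.05 over all genes tested. Scripts were tested on simulated data. The genes named are the members, the 3 list genes of largest change in a contrast and the 3 most similar patterns per member. Members and lists were chosen with earlier results of these data known. Surface replicates are described as biological replicates, while for PBMCs nothing says that libraries came from separate animals, so those p-values measure the spread between these samples, which may be technical. Alternatives were other scaling, pseudocounts and filters, single transcripts, a replicate block and leaving out libraries. Positions and sequences are from GENCODE M21 on GRCm38, an older annotation than that of the surface tables, with other versions of the Rpph1 and Rmrp transcripts and another Terc identifier.

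Of the marker lists in PBMCs not given beside a result, platelet markers were 394 to 467 CPM in ct, 224 to 299.7 in WT and 318 to 358 in Y. Over all 9 libraries the sums were 269 to 365 for B cells, 70.9 to 113 for T cells, 213 to 280 for monocytes and 6.63 to 10.9 for HSPCs.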

Additional observations from a re-analysis of the deposited data

How the results depend on the processing

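Depth is unknown at the surface, and 18 to 61 counts of Terc limit its PBMC values. Under the other settings, 135 of 157 results of 1 cell type against the others on deposited TPM, 115 of 150 in pairs, 25 of 27 on rescaled TPM and 57 of 57 of PBMCs stayed on their side of the threshold without a called value turning, while some that passed in neither fit changed sign. Leaving out 1 library, this held for 209 of 225, 417 of 450, 208 of 225 and 81 of 81. The cause of the changes was not tested.

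Rescaling gave, for 1 type against the others, Rpph1 -0.56 in T cells, 0.70 in HSPCs and -0.52 in monocytes, Rmrp -0.54 in T cells and 2.00 in HSPCs, and Terc 1.88 in HSPCs. In pairs it gave Rpph1 T minus HSPC -1.01, NK minus HSPC -1.27 and HSPC minus monocyte 0.97, Rmrp NK minus HSPC -1.19 and Terc HSPC minus monocyte 1.95. Quantile normalization gave Rpph1 -0.71 in T cells, 1.18 in HSPCs and -0.69 in monocytes, Rmrp -0.36 in T cells and 2.58 in HSPCs, and Terc 0.18 in T cells, 1.24 in HSPCs and -1.90 in monocytes. In pairs it gave Rmrp B minus T 0.49 and NK minus HSPC -1.63, Rpph1 B minus HSPC -0.15, T minus HSPC -1.51, NK minus HSPC -1.56 and HSPC minus monocyte 1.497, and Terc T minus monocyte 1.67, NK minus monocyte 1.54 and HSPC minus monocyte 2.51. With no filter Terc in T cells was -0.81 (limma adjusted p = 0.100). The highest transcript gave Terc 0.82 (B cells), -0.094 (T cells), 0.61 in NK cells, 0.90 in HSPCs and -2.24 in monocytes. In that fit T cells did not pass and the others did, but all these contrasts hold the 0 of monocytes, so no call is read from them. Without monocytes, NK cells gave Rpph1 -0.51 and Rmrp 0.60 (0.024 rescaled), and the ratio in B cells was -1.75.

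Leaving out 1 library in turn gave Rpph1 0.39 to 0.51 in monocytes and -0.71 to -0.52 in NK cells, Terc -1.01 to -0.57 in T cells and -0.13 to 0.90 in monocytes, and ratios of -1.57 to -1.35 in monocytes and 1.31 to 1.53 in NK cells. On rescaled TPM, fits added after seeing the data gave Rmrp 0.45 to 0.62 in NK cells (call lost in 11 of 15) and -0.77 to -0.30 in T cells, Rpph1 -0.73 to -0.27 in T cells, 0.62 to 0.78 in HSPCs and -0.59 to -0.48 in monocytes, and Terc -1.08 to 0.075 in monocytes. The T cell calls of Rpph1 and Rmrp were lost without T cell replicate 1, that of Rpph1 in HSPCs without HSPC replicate 1, and that of Rpph1 in monocytes without monocyte replicate 1 or 2.

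Replicate numbers showed no general pairing of the libraries: deviations of same-numbered libraries correlated at -0.26 to 0.47 (30 surface pairs) and -0.04 to 0.06 (9 PBMC pairs). The median r was 0.005 at the surface and -0.010 in PBMCs, beside -0.005 and 0.002 for libraries of other numbers. Whether some libraries shared animals or batches cannot be told from this. The replicate block changed 1 call, rescaled Rmrp in NK cells (0.51, limma adjusted p = 0.0523).

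Counts of genes called moved by over 1.5 times for PBMCs with DESeq2 (163 against 275 for WT minus ct, 89 against 146 for Y minus WT) and with no filter (484, 257 against 81, and 367). At the surface, quantile normalization gave 6571 (T cells), 3612 (NK cells), 6490 (HSPCs) and 7970 (monocytes) genes, and leaving out monocytes 3371 (B cells), 4429 (T cells), 1759 (NK cells) and 2958 (HSPCs), or 4971 (B cells) and 999 (NK cells) on rescaled TPM. Rescaling gave 7137 against 10783 for HSPCs, no filter 19443 for monocytes, and the highest transcript 12634 for B cells and 9837 for NK cells. The filter of over 50 TPM in 1 library gave 471 (NK cells) to 1173 (monocytes).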

Other observations

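Ratios with Terc are given as values. Rmrp over Terc was 14.4 to 159 across the surface libraries and 476 to 796 across the PBMC libraries, and Rpph1 over Terc was 27.5 to 186 and 70.1 to 142.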
